A study of Mus musculus with 8 samples.

Results

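The 10 genes described here encode the subunits of the transcription factor NF-kB and the proteins that NF-kB induces to restrain or tune itself: *Rela*, *Rel*, *Relb*, *Nfkb1*, *Nfkb2*, *Nfkbia*, *Nfkbiz*, *Bcl3*, *Tnfaip3*, and *Birc3*. They were taken by symbol from the 48709 genes measured in every library, and all 10 were found. Bulk RNA-Seq was done on pancreata of 8-week-old male mice, 24 hours after saline or after palmitoleic acid (POA) and ethanol, which were given together i.p. to produce fatty acid ethyl ester severe acute pancreatitis (FAEE-SAP). By the study's methods, mice were fasted before induction, and buprenorphine came with the first POA and ethanol injection. The drug is not described for saline, so it and FAEE-SAP cannot be told apart. There were 4 groups with 2 libraries in each: WT saline, WT FAEE-SAP, cKO saline, and cKO FAEE-SAP. The cKO mice carried *Pfkfb3* fl/fl and a *Pdx1*-Cre transgene, which is active in the pancreatic epithelium from development onward and not in leukocytes, vessels, or fibroblasts. The WT mice were bought from a supplier and were not described as littermates of the cKO mice, so the source of the mice and the genotype cannot be told apart. Nothing says which pancreata were handled together.

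In resting cells, NF-kB dimers are held in the cytoplasm by IkB proteins. A kinase complex that is switched on by cytokine and Toll-like receptors marks IkB for degradation, the dimers enter the nucleus, and they induce inflammatory genes together with their own inhibitors, which closes a feedback loop. In acute pancreatitis, NF-kB is known to be activated in acinar cells as well as in the leukocytes that enter the gland, and whole-pancreas RNA holds both.

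The promoters show which of the genes carry the letters that NF-kB recognizes. RefSeq promoter windows (GRCm38.p6, 250 bases before and 50 bases after a transcription start) were at hand for 7 of the 10 genes. The NF-kB consensus, a motif of 10 bases searched on both strands, was present in windows of 5 genes, *Nfkbia*, *Bcl3*, *Rel*, *Tnfaip3*, and *Nfkb2*. Of all 32851 windows, 8.46% held a match, as did 9.55% of all genes with a window. The matches are printed 5′ to 3′ on the strand of the gene, with the matching letters in capitals and 10 or fewer neighboring bases on each side, because they lie in the feedback genes whose levels are given next. Matches that overlap each other were merged into 1 run.
Nfkbia (chr12:55492657-55492686, minus strand): tgactggcttGGAAATTCCCcgcgcctgac
Bcl3 (chr7:19822734-19822763, minus strand): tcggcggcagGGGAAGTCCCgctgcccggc
Rel (chr11:23771042-23771071, minus strand): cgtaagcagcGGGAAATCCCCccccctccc
Tnfaip3 (chr10:19015516-19015545, minus strand): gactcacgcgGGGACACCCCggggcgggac
Tnfaip3 (chr10:19015403-19015432, minus strand): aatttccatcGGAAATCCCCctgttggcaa
Nfkb2 (chr19:46304688-46304717, plus strand): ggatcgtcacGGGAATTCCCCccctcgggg
Nfkb2 (chr19:46304716-46304745, plus strand): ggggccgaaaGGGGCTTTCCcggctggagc
Nfkb2 (chr19:46305449-46305478, plus strand): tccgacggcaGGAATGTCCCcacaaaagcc
Nfkb2 (chr19:46305695-46305724, plus strand): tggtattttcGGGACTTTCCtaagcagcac

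The *Nfkbia* match lay 29 to 20 bases before the start and the *Bcl3* match 3 to 12 bases after it. The *Rel* match lay 92 to 82 bases before the start, and the 2 *Tnfaip3* matches lay 125 to 116 and 12 to 3 bases before it. *Nfkb2* has several annotated starts, and its first 2 matches lay 39 to 29 and 11 to 2 bases before the most upstream of those in the windows. A match describes letters and does not show that the site is used. The windows of *Rela* and *Birc3* held none of these letters. The 250 bases upstream of the start are shown for *Nfkbia*, the classical feedback inhibitor with a match near the start, and for *Rela*, the subunit gene on which the comparisons below turn.
Nfkbia upstream (chr12:55492648-55492897, minus strand): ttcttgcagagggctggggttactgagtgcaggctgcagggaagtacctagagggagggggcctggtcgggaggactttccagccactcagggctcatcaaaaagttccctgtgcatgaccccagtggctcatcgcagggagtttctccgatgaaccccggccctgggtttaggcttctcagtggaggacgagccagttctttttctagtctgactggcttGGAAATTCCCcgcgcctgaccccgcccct
Rela upstream (chr19:5637291-5637540, plus strand): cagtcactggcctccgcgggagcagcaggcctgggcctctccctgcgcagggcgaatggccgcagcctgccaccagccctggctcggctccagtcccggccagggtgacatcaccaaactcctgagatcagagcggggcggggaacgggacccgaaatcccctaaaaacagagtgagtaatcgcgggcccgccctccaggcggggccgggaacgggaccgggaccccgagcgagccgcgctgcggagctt

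Levels are given as scaled RPKM. RPKM is reads scaled to exon length and to the mapped reads of the library, so values can be set side by side between genes, and each library was divided by 1 factor, the median over genes of its ratio to the geometric mean of all 8 libraries. The factors were 0.728 and 0.866 in WT saline, 0.621 and 0.665 in cKO saline, 1.05 and 0.975 in cKO FAEE-SAP, and 2.02 and 1.94 in WT FAEE-SAP. As deposited, the median gene was therefore 1.24 higher on the log2 scale in WT FAEE-SAP than in WT saline, and 0.91 lower in cKO FAEE-SAP than in WT FAEE-SAP, and all changes below are relative to the median gene. Without scaling the split of genes that passed turned too, from 335 higher and 420 lower to 7184 and 86 with FAEE-SAP in WT, and from 95 and 45 to 73 and 4354 in cKO against WT. Library totals worked out from the values were 22.9 to 37.7 M reads. The 15 acinar markers were abundant in every library, at 33.0% to 42.3% of its summed RPKM. *Pfkfb3* itself lay between 0.880 and 2.10 scaled RPKM in the 4 saline libraries and between 1.74 and 3.21 in the 4 FAEE-SAP libraries, and the genotypes overlapped under both treatments. A gene-level value includes exons outside the floxed region and pancreatic cells that do not express Cre, so it does not check the deletion, and genotypes are those of the labels.

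*Nfkbia* and *Rela* were the most abundant of the 10 genes in all 4 groups. In WT saline, *Nfkbia* averaged 9.52 ± 1.56 scaled RPKM (SD, n = 2), *Rela* 5.35 ± 0.972, and *Birc3* 3.03 ± 0.545, and these did not overlap each other. *Nfkb1* (2.16 ± 0.475), *Nfkb2* (2.07 ± 0.781), *Relb* (1.34 ± 0.667), and *Nfkbiz* (1.31 ± 0.113) followed, and neighbors in this order overlapped. *Tnfaip3*, *Rel*, and *Bcl3* were lowest, at 0.610 ± 0.0385, 0.464 ± 0.207, and 0.440 ± 0.319. They overlapped each other and lay below *Nfkbiz*. In WT FAEE-SAP the order changed at the top and in the middle: *Rela* stood first at 19.97 ± 6.73, *Nfkbia* second at 13.4 ± 0.805 without overlap, and *Bcl3* moved from the tenth place to the sixth at 2.35 ± 0.868. *Rel* was last in WT FAEE-SAP at 0.460 ± 0.00997.

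**Figure D1:**
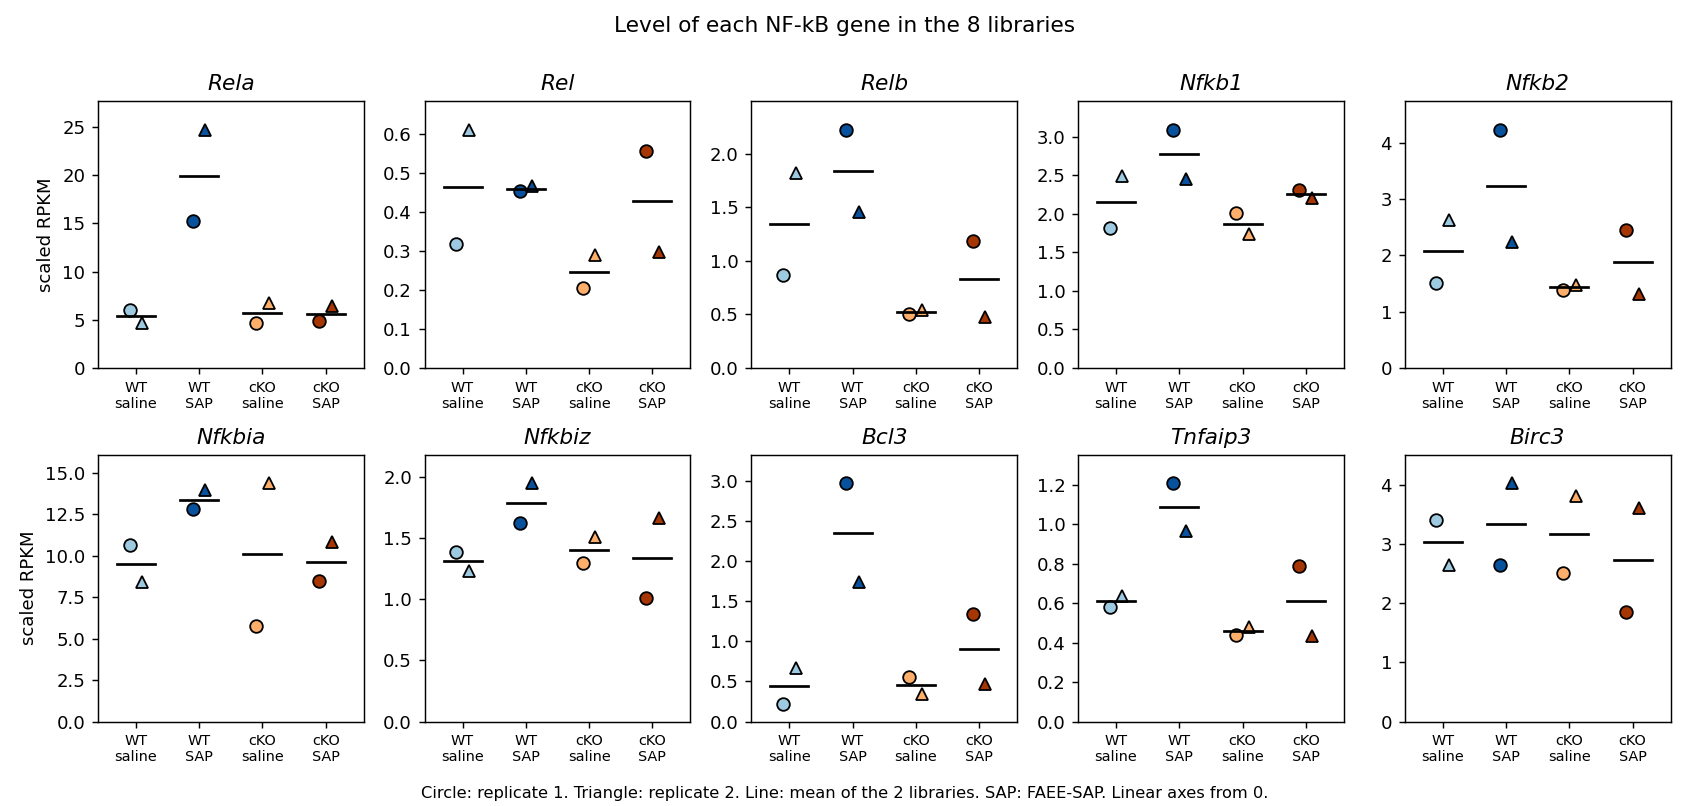
Scaled RPKM (vertical axes, linear, from 0) of each of the 10 genes in WT saline, WT FAEE-SAP, cKO saline, and cKO FAEE-SAP. Circles are replicate 1, triangles replicate 2, and lines the mean of the 2 libraries. *Rela* was at 15.2 and 24.7 in WT FAEE-SAP and between 4.62 and 6.72 in the other 6 libraries, and *Bcl3* was at 2.97 and 1.74 in WT FAEE-SAP.

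FAEE-SAP was compared with saline in WT to see which parts of the NF-kB system differed after pancreatitis at 24 hours. *Rela* and *Bcl3* rose. *Rela* encodes p65, the main activating subunit of the classical pathway, and *Bcl3* encodes a nuclear IkB that binds p50 and p52 dimers and alters what they transcribe. These 2 of 10 genes passed the threshold, a Benjamini-Hochberg adjusted p under 0.05 in limma over all genes tested together with a change of at least 2-fold. Of all 10894 genes tested, 3.08% passed in this direction and 3.86% in the other, 6.93% in all. At an unadjusted p of 0.05, *Tnfaip3* and *Nfkbia* joined them, which made 4 of 10 against 27.7% of all genes tested. All 10 genes had a fitted change above 0, against 51.1% of all genes tested, and their log2 fold changes had a median of 0.48 against 0.02 over all genes. With values as deposited, all 10 passed, but so did 7270 of all 10894 genes tested. Without overlap between the groups, 5 of the 10 were higher, against 29.7% of all genes tested. *Rel*, *Bcl3*, and *Tnfaip3* were at 0.5 RPKM or more in only 1 WT saline library and entered the test through WT FAEE-SAP, so the counts over the 10 genes are a description and not support. Replicates are separate samples per the labels, and a permutation of 2 against 2 libraries cannot give a two-sided p below 0.33, so p-values rest on the spread that limma shares between genes.

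*Rela* lies at chr19:5637483-5648130 on the plus strand (GRCm38, GENCODE vM21). It was at 6.04 and 4.67 scaled RPKM in WT saline and at 15.2 and 24.7 in WT FAEE-SAP. Both FAEE-SAP libraries were above both saline libraries, and the second was the higher. The mean was 3.73-fold higher, and the fitted log2 fold change was 1.85 (SE 0.286, adjusted p = 0.0234 in limma). About 383 and 339 reads lay behind the saline values and 2167 and 4811 behind the FAEE-SAP values. Before scaling, *Rela* was at 4.40 and 4.04 RPKM in WT saline and at 30.8 and 47.9 in WT FAEE-SAP.

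*Rel* encodes c-Rel, a subunit best known from lymphocytes. It was at 0.318 and 0.611 scaled RPKM in WT saline and at 0.453 and 0.467 in WT FAEE-SAP, so the FAEE-SAP values lay between the saline values. Its fitted log2 fold change was 0.04 (95% interval -0.80 to 0.87), and its sign turned under quantile normalization. *Relb*, the activating subunit of the noncanonical pathway, was at 0.872 and 1.82 in WT saline and at 2.22 and 1.46 in WT FAEE-SAP. The groups overlapped, and the log2 fold change was 0.48 (95% interval -0.49 to 1.45).

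*Nfkb1* and *Nfkb2* encode p105 and p100, the precursors of the DNA-binding subunits p50 and p52, which also act as inhibitors before they are processed. *Nfkb1* was at 1.82 and 2.49 scaled RPKM in WT saline and at 3.09 and 2.45 in WT FAEE-SAP. *Nfkb2* was at 1.52 and 2.62 in WT saline and at 4.23 and 2.24 in WT FAEE-SAP. Both overlapped between the groups, with log2 fold changes of 0.35 (95% interval -0.26 to 0.97) for *Nfkb1* and 0.60 (95% interval -0.37 to 1.57) for *Nfkb2*. *Nfkb2* shares 11.6% of its exonic length with the lncRNA gene *AC114539.1*, for which no value was matched, and 6.52% with *Psd*, which reached at most 0.399 RPKM. Both lie on the opposite strand, and since strand use in counting is not stated, the level of *Nfkb2* is uncertain to that extent.

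Because a share within a library does not depend on the scaling, the 5 subunit genes were also set against their own sum, a measure chosen after the values were seen. *Rela* made up 57.2% and 38.2% of the summed RPKM of the 5 subunit genes in WT saline and 60.3% and 78.9% in WT FAEE-SAP. The share was 52.9% and 62.4% in cKO saline and 42.7% and 59.9% in cKO FAEE-SAP. Both WT FAEE-SAP shares were thus above both WT saline shares, and 1 cKO saline library lay inside the WT FAEE-SAP range. The ratio of *Rela* to *Nfkb1*, the partners of the classical p65 and p50 dimer, was 3.32 and 1.87 in WT saline and 4.91 and 10.1 in WT FAEE-SAP. In cKO it was 2.30 and 3.86 with saline and 2.10 and 2.90 with FAEE-SAP, so the WT FAEE-SAP libraries held the 2 highest ratios of the 8.

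**Figure D2:**
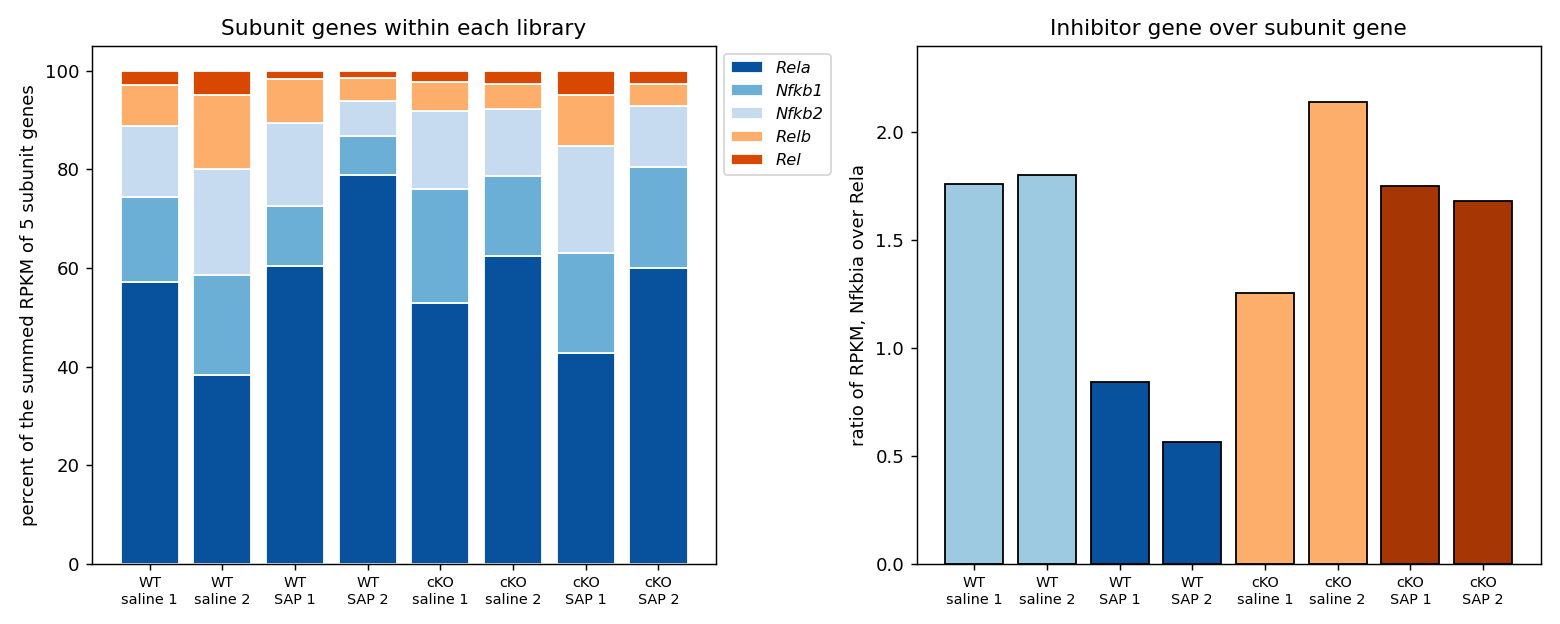
Left, percent of the summed RPKM of the 5 subunit genes (vertical axis) taken by each gene in each of the 8 libraries. Right, ratio of *Nfkbia* RPKM to *Rela* RPKM (vertical axis, from 0) in the same libraries, which was 0.842 and 0.564 in WT FAEE-SAP and 1.25 to 2.14 in the other 6.

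*Nfkbia* encodes IkBa, the inhibitor that is degraded on activation and then resynthesized under the control of NF-kB. It was at 10.6 and 8.41 scaled RPKM in WT saline and at 12.8 and 13.9 in WT FAEE-SAP. The groups did not overlap, but the log2 fold change of 0.49 (SE 0.196) did not pass the threshold, with an adjusted p of 0.176 in limma. Relative to *Rela*, its level moved the other way. The ratio of *Nfkbia* to *Rela* was 1.76 and 1.80 in WT saline and 0.842 and 0.564 in WT FAEE-SAP, a ratio that is free of scaling and was chosen after the values were seen.

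*Nfkbiz* encodes IkBzeta, a nuclear IkB that is required for part of the secondary response. It was at 1.39 and 1.23 scaled RPKM in WT saline and at 1.62 and 1.95 in WT FAEE-SAP. The groups did not overlap, and the log2 fold change of 0.42 (SE 0.225) had an adjusted p of 0.294 in limma.

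*Bcl3* lies at chr7:19808462-19822770 on the minus strand, and 6.51% of its exonic length is shared with the antisense gene *Gm16175*, which was listed at 0 in every library. *Bcl3* was at 0.215 and 0.666 scaled RPKM in WT saline and at 2.97 and 1.74 in WT FAEE-SAP. Both FAEE-SAP libraries were above both saline libraries, and the saline libraries differed from each other more than those of any other of the 10 genes did in proportion. The saline values rest on about 11 and 39 reads and the FAEE-SAP values on 341 and 273. The mean was 5.35-fold higher, and the fitted log2 fold change was 2.32 (SE 0.498, adjusted p = 0.0481 in limma), close to the threshold. Relative to *Nfkb1*, whose product it binds as p50, *Bcl3* went from 0.118 and 0.267 in WT saline to 0.959 and 0.709 in WT FAEE-SAP.

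*Tnfaip3* encodes A20, which edits ubiquitin chains on upstream adaptors and so shuts off the kinase complex. It was at 0.583 and 0.637 scaled RPKM in WT saline and at 1.21 and 0.965 in WT FAEE-SAP. The groups did not overlap, and the mean was 1.78-fold higher. The log2 fold change of 0.74 (SE 0.244) had an adjusted p of 0.119 in limma and did not pass. *Birc3* encodes cIAP2, a ubiquitin ligase of the TNF receptor complex. It was at 3.41 and 2.64 in WT saline and at 2.65 and 4.03 in WT FAEE-SAP, which overlapped, with a log2 fold change of 0.11 (95% interval -0.57 to 0.80).

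Neither of the 2 calls in WT held in all settings. With 1 of the 4 libraries left out, 0 or 1 of the 10 genes passed: *Rela* alone without WT FAEE-SAP replicate 1 (adjusted p = 0.0390), *Bcl3* alone without WT saline replicate 2 (adjusted p = 0.0185, with the remaining saline library at 0.157 RPKM and thus under the minimum), and neither without WT saline replicate 1 (*Rela* 0.0515, *Bcl3* 0.112) or without WT FAEE-SAP replicate 2 (*Rela* 0.101, *Bcl3* 0.161), all by limma. With every gene above 0 tested, the adjusted p of *Rela* was 0.0616 and that of *Bcl3* 0.0961 in limma. Over 13 alternatives that kept all 4 libraries, the adjusted p in limma ranged from 0.00100 to 0.0616 for *Rela* and from 0.00195 to 0.0961 for *Bcl3*. The log2 fold change of *Rela* stayed between 1.54 and 2.24, and that of *Bcl3* between 1.68 and 3.02, over the 4 fits that left out 1 library.

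FAEE-SAP was compared with saline in cKO in the same way, and 0 of the 10 genes passed. Only 5 of 9423 genes tested passed at all (0.0531%). Of the 10 genes, 6 were tested, and *Rel*, *Relb*, *Tnfaip3*, and *Bcl3* were under the minimum of 0.5 RPKM in 2 libraries. None of the 6 passed at an unadjusted p of 0.05 either, against 9.42% of all genes tested. Voom on the recovered reads also called 0 of them, against 4 of all 9183 genes tested. Higher values without overlap were found for 1 of the 6, *Nfkb1*, against 19.6% of all genes tested. The 6 log2 fold changes ran from -0.22 for *Birc3* to 0.34 for *Nfkb2*.

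*Rela* was at 4.62 and 6.72 scaled RPKM in cKO saline and at 4.84 and 6.42 in cKO FAEE-SAP, so the FAEE-SAP values lay inside the saline range. Its log2 fold change was 0.03, with a 95% interval of -0.65 to 0.71. *Nfkbia* was at 5.79 and 14.4 in cKO saline and at 8.47 and 10.8 in cKO FAEE-SAP. The spread between the 2 cKO saline libraries was the widest of *Nfkbia* in any group, and the log2 fold change was 0.10 (95% interval -1.10 to 1.29). *Nfkb1* was at 2.01 and 1.74 in cKO saline and at 2.31 and 2.21 in cKO FAEE-SAP, without overlap, and its log2 fold change of 0.28 (SE 0.177) had an adjusted p of 0.630 in limma.

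The 4 genes under the minimum are given as levels. *Bcl3* was at 0.552 and 0.348 scaled RPKM in cKO saline and at 1.34 and 0.469 in cKO FAEE-SAP, on about 32, 18, 96, and 35 reads. The first FAEE-SAP library stood above the other 3, and the groups overlapped. *Relb* was at 0.505 and 0.542 in cKO saline and at 1.19 and 0.478 in cKO FAEE-SAP, again with only the first FAEE-SAP library high. *Rel* was at 0.206 and 0.289 in cKO saline and at 0.556 and 0.298 in cKO FAEE-SAP, which did not overlap, and *Tnfaip3* was at 0.437 and 0.477 and at 0.791 and 0.431, which did.

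With saline, cKO was compared with WT to ask whether the genotypes differed before pancreatitis. 0 of the 10 genes passed, as did 0 of all 8715 genes tested (0%) in limma. Voom on the recovered reads also called 0, and 0 of all 8492 genes tested. At an unadjusted p of 0.05, 1 of the 7 genes tested passed, against 2.15% of all genes tested. That gene was *Relb*, at 0.872 and 1.82 scaled RPKM in WT saline and at 0.505 and 0.542 in cKO saline. Both cKO libraries were below both WT libraries, and *Relb* reached the minimum only through WT saline, where it was high, so the 1 of 7 is a description. The log2 fold change was -1.11 (SE 0.378, unadjusted p = 0.0340, adjusted p = 0.999 in limma). *Nfkb2*, whose p52 product is the usual partner of RelB, was at 1.52 and 2.62 in WT saline and at 1.39 and 1.47 in cKO saline, also without overlap, and its log2 change of -0.47 (SE 0.295) did not pass. Lower values without overlap were found for 2 of the 7 genes tested, against 12% of all genes tested, and among the genes under the minimum for *Rel* and *Tnfaip3*. *Rela*, *Nfkb1*, *Nfkbia*, *Nfkbiz*, and *Birc3* overlapped between the genotypes, and their log2 fold changes lay between -0.20 for *Nfkb1* and 0.06 for *Nfkbiz*.

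With FAEE-SAP, cKO was compared with WT to see where the genotypes stood apart in pancreatitis. The WT FAEE-SAP libraries are the same as in the comparison within WT, so the 2 comparisons are not independent. 0 of the 10 genes passed by adjusted p, against 1.27% of all 11008 genes tested, 0.863% higher and 0.409% lower. With values as deposited, 9 passed, as did 4427 of all 11008 genes tested. Voom on the recovered reads called 0 of the 10, against 106 of all 10721 genes tested. At an unadjusted p of 0.05, 3 passed, against 19.5% of all genes tested. All 10 fitted log2 changes were below 0, where 49.3% of all genes tested were above 0, and their median was -0.63 against -0.01 over all genes tested. Lower values without overlap were found for 6 of the 10 genes, against 25.3% of all genes tested, and higher ones for 0, against 26.5%. *Rel*, *Relb*, *Bcl3*, and *Tnfaip3* reached 0.5 RPKM in only 1 cKO FAEE-SAP library and entered the test through WT FAEE-SAP, so these counts are a description as well.

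*Rela* was at 15.2 and 24.7 scaled RPKM in WT FAEE-SAP and at 4.84 and 6.42 in cKO FAEE-SAP. Every cKO library was below every WT library, and the cKO mean was 0.282 of the WT mean. The log2 fold change was -1.80 (SE 0.303), with an adjusted p of 0.0703 in limma and a range of 0.00977 to 0.195 over 12 alternatives. With all 8 libraries in 1 model the adjusted p in limma was 0.0349, and *Rela* passed. *Bcl3*, at 2.97 and 1.74 against 1.34 and 0.469, had a log2 change of -1.44 (SE 0.504), which missed the threshold with an adjusted p of 0.209 in limma. *Relb*, at 2.22 and 1.46 against 1.19 and 0.478, had one of -1.18 (SE 0.442), with an adjusted p of 0.228 in limma. For both, the groups did not overlap and the 2 cKO libraries lay far apart. *Tnfaip3* (-0.82), *Nfkbia* (-0.49), and *Nfkb1* (-0.29) were also lower without overlap, and *Nfkb2*, *Nfkbiz*, *Birc3*, and *Rel* overlapped.

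The difference between the treatment effects was tested directly as the interaction of genotype and treatment. 0 of the 10 genes passed, against 8 of 11133 genes tested (0.0719%, of which 0.0449% above and 0.0269% below 0). Voom on the recovered reads called 0 of the 10, against 8 of all 10845 genes tested. At an unadjusted p of 0.05, 1 passed, against 12.6% of all genes tested. That gene was *Rela*, with an interaction of -1.85 on the log2 scale (SE 0.431, unadjusted p = 0.00331, adjusted p = 0.203 in limma). The interaction was below 0 for 9 of the 10 genes, where 51.2% of all genes tested were above 0, and for *Rel* it was 0.53 (95% interval -0.68 to 1.74). *Bcl3* had an interaction of -1.53 with a 95% interval of -3.42 to 0.36. For *Relb* it was -0.01 (SE 0.645), and its sign turned under 3 alternatives that kept all 8 libraries.

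**Figure D3:**
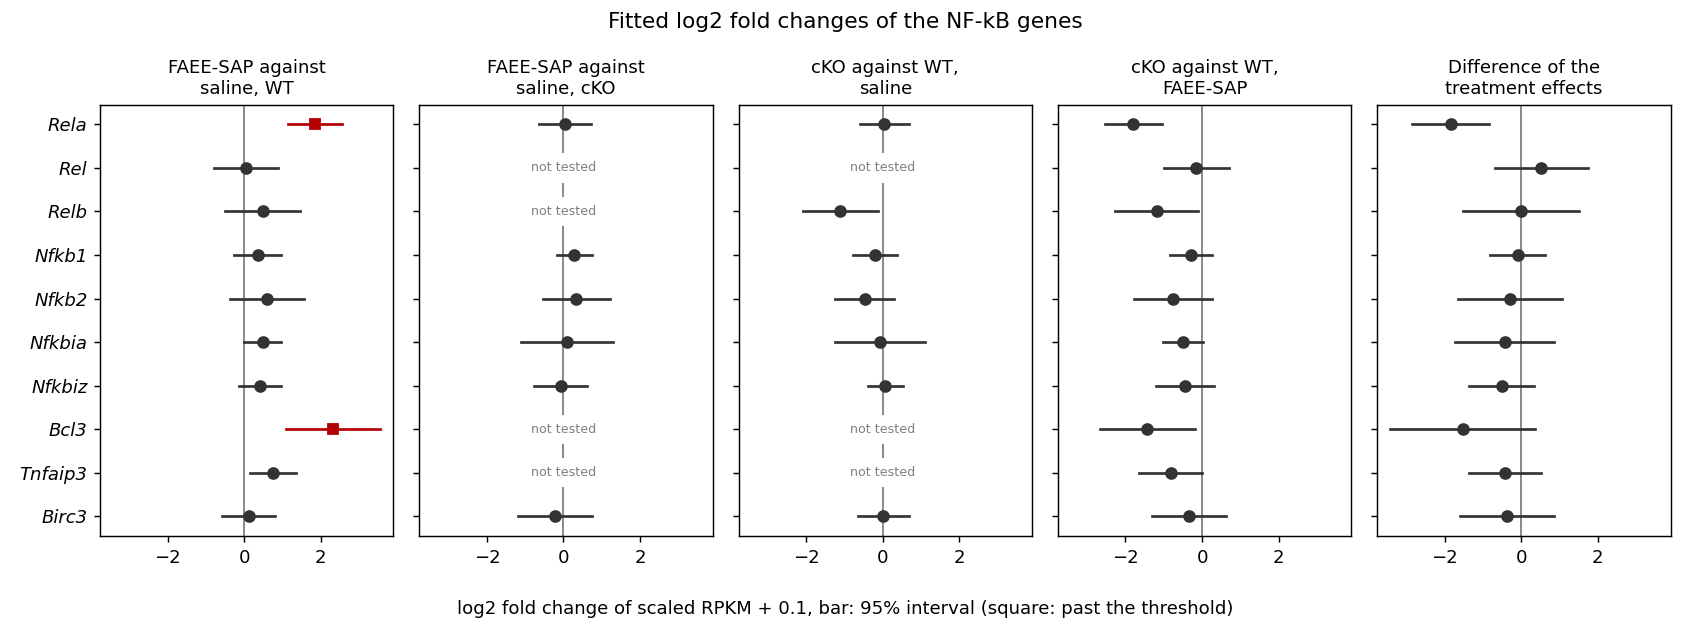
Fitted log2 fold changes (horizontal axes) of the 10 genes in the 5 comparisons, with bars for the 95% interval. Red squares mark the 2 genes that passed the threshold, *Rela* (1.85) and *Bcl3* (2.32) with FAEE-SAP in WT, and genes under the RPKM minimum are marked as not tested.

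Whole pancreas holds several cell types, and fewer cells of a type and less RNA per cell cannot be told apart. In WT, the 10 neutrophil markers summed to 1.55 and 2.70 scaled RPKM with saline and to 60.7 and 56.9 with FAEE-SAP. In cKO, they summed to 3.89 and 1.44 with saline and to 20.2 and 13.6 with FAEE-SAP. All 7 of the neutrophil markers tested rose with FAEE-SAP in WT, and 2 of 7 were lower in cKO than in WT with FAEE-SAP. These counts are a description, since of the 10 markers only 1 reached the minimum in the comparison with saline and 4 in the comparison within cKO, and 3.08% of all genes tested rose in WT and 0.409% were lower in cKO with FAEE-SAP. Among the defining neutrophil markers, *Ly6g* was listed at 0 in all 4 saline libraries and in cKO FAEE-SAP replicate 2, and *Mpo* in both WT FAEE-SAP libraries. *Camp* was listed at 0 in WT FAEE-SAP replicate 1 and *Mmp8* in WT saline replicate 1. The 15 acinar markers all fell with FAEE-SAP in WT, and their sum went from 317486 and 274409 to 81339 and 85360 scaled RPKM. In cKO the acinar sum was 366252 and 366280 with saline and 212816 and 234940 with FAEE-SAP, and 10 of the 15 were higher in cKO than in WT with FAEE-SAP. Of the 5 islet markers, 2 fell with FAEE-SAP in WT, and 2 were higher in cKO than in WT with FAEE-SAP. Of all genes tested, 3.86% fell in WT and 0.863% were higher in cKO with FAEE-SAP. The part of these shifts in the levels of *Rela*, *Bcl3*, and the other 8 genes was not tested.

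Levels of lymphocyte markers differed between libraries of the same group, and are given beside those of the 10 genes. In WT, the 9 T cell markers summed to 9.43 and 22.9 scaled RPKM with saline and to 10.6 and 10.9 with FAEE-SAP. In cKO, they summed to 7.09 and 6.40 with saline and to 16.7 and 6.73 with FAEE-SAP. WT saline replicate 2 and cKO FAEE-SAP replicate 1 were the higher of their groups, and so they were for 6 of the 10 genes, *Rel*, *Relb*, *Nfkb1*, *Nfkb2*, *Bcl3*, and *Tnfaip3*. In the other groups the T cell sum and these genes did not all run together: *Relb* was at 2.22 and 1.46 in WT FAEE-SAP, where the T cell sums were nearly equal and the B and plasma cell sums were 44.3 and 39.3, and at 0.505 and 0.542 in cKO saline, where the first sum was the higher. The 8 B and plasma cell markers were highest in the same 2 libraries, at 71.0 and 107, against 36.2 to 59.7 in the other 6. The pattern was not limited to lymphocytes, although the dendritic cell list shares *Ccr7* with the T cell list. Dendritic cell markers (2.59 and 5.18 in WT saline, 4.42 and 1.67 in cKO FAEE-SAP), adipocyte markers (11.8 and 28.2, then 29.2 and 5.28), and endothelial markers (11.4 and 13.7, then 17.2 and 13.4) were higher in the same libraries, as were fibroblast and macrophage markers. The other 4 genes were lower in these 2 libraries than in the other library of the same group. *Rela* was at 4.67 against 6.04 and 4.84 against 6.42, *Nfkbia* at 8.41 against 10.6 and 8.47 against 10.8, *Nfkbiz* at 1.23 against 1.39 and 1.01 against 1.66, and *Birc3* at 2.64 against 3.41 and 1.85 against 3.61. Acinar sums were lower in the same 2 libraries, at 274409 against 317486 and 212816 against 234940 scaled RPKM. So were islet sums, at 242 against 285 and 364 against 387. Neutrophil sums were higher in both, and the duct sum was lower only in WT saline replicate 2. No T cell or B and plasma cell marker was listed at 0, and none passed in any of the 4 comparisons between groups. The 11 macrophage markers found, out of 12, summed to 81.0 to 138 over the 8 libraries. Of these 11, 2 rose with FAEE-SAP in WT, where 3.08% of all genes tested did. With FAEE-SAP 1 was lower in cKO than in WT, against 0.409%, although the median over the 11 was 0.48 above 0 on the log2 scale. The part of any of these cell types in the levels of the 10 genes was not tested. Without either of the 2 WT saline libraries, *Relb* fell under the minimum and could not be tested between the genotypes with saline.

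**Figure D4:**
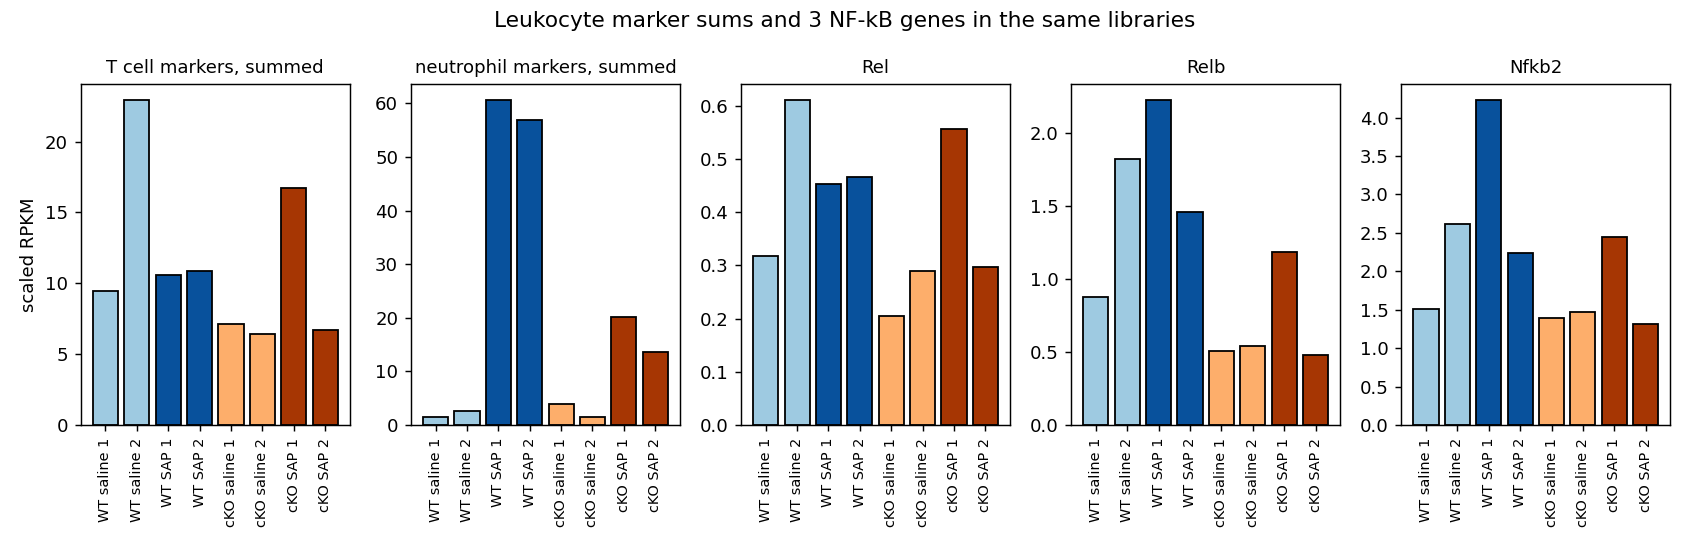
Summed scaled RPKM of 9 T cell markers and 10 neutrophil markers, and scaled RPKM of *Rel*, *Relb*, and *Nfkb2* (vertical axes, from 0), in each of the 8 libraries. WT saline replicate 2 and cKO FAEE-SAP replicate 1 hold the highest T cell sums, 22.9 and 16.7, and are the higher library of their group for the 3 genes.

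Of 52 further genes of the NF-kB pathway, 48 were tested with FAEE-SAP in WT, 5 rose, and 0 fell, where 3.08% of all genes tested rose and 3.86% fell. Without either WT FAEE-SAP library 41 were tested, so some entered only through the group where they were high, and the count is a description. Their median log2 fold change was 0.26, against 0.02 over all genes. By role, 2 of 16 adaptors, 1 of 6 ubiquitin ligase genes, 2 of 10 other feedback genes, 0 of 5 other inhibitors, and 0 of 11 kinases passed. *Myd88*, the adaptor of Toll-like and IL-1 receptors, went from 2.07 and 1.80 to 8.04 and 9.57 scaled RPKM (log2 fold change 2.13, SE 0.205, adjusted p = 0.00619 in limma). *Irak3*, an inhibitory relative of the kinases that bind MyD88, rose by 1.25 on the log2 scale (adjusted p = 0.0418 in limma). *Tnip1*, which binds A20, went from 1.60 and 2.11 to 6.63 and 4.88 (1.58, adjusted p = 0.0249 in limma). *Zc3h12a*, an RNase that degrades inflammatory transcripts, rose by 1.64 (adjusted p = 0.0231 in limma). *Rnf31*, the catalytic subunit of the linear ubiquitin ligase, rose by 1.27 (adjusted p = 0.0458 in limma). The log2 fold changes of the 11 kinase complex genes and upstream kinases ran from -0.19 to 1.18, and those of the 5 other inhibitors from -0.44 to 0.47. Without a filter, 1 of the 52 passed, where 132 of all 19311 genes tested rose. With 1 library left out, the log2 fold changes of the 5 genes ran from 1.01 for *Rnf31* to 2.29 for *Myd88*.

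In cKO, 0 of 38 pathway genes tested passed with FAEE-SAP in limma (1 at an unadjusted p of 0.05, against 9.42% of all genes tested), and with saline 0 of 36 passed between the genotypes (0 unadjusted). With FAEE-SAP, 2 of 49 were lower in cKO than in WT, against 0.409% of all genes tested. They were *Myd88* (log2 fold change -1.74, SE 0.216, adjusted p = 0.0317 in limma) and *Tnip1* (-1.65, SE 0.249, adjusted p = 0.0496 in limma). *Myd88* was at 2.81 and 2.39 scaled RPKM in cKO FAEE-SAP, and *Tnip1* at 1.98 and 1.59. Without WT FAEE-SAP replicate 1 or 2, 44 or 45 were tested. Some thus entered only through the group where they were high, and the count of 2 is a description. Without an intensity trend 0 of the 49 passed, where 57 of all 11008 genes tested did. With 1 library left out, the log2 fold change ran from -1.89 to -1.62 for *Myd88* and from -1.88 to -1.45 for *Tnip1*. At an unadjusted p of 0.05 and a 2-fold change, 5 of the 49 passed, as did 924 of all 11008 genes tested. 0 of the 49 passed for the interaction (7 at an unadjusted p of 0.05, against 12.6% of all genes tested). With voom, 1 of the 49 was lower in cKO with FAEE-SAP, where 28 of all 10721 genes tested were. With voom 0 passed in cKO, with saline, and for the interaction, where 4 of 9183, 0 of 8492, and 8 of 10845 genes tested did.

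Of 40 genes that NF-kB is known to induce, 32 were tested with FAEE-SAP in WT, and 16 rose and 0 fell, where 3.08% of all genes tested rose. The list was chosen with results of these data known, and some of its genes reached the minimum only through WT FAEE-SAP, so this count is a description and not support. Their log2 fold changes had a median of 1.52, also with the 4 genes listed at 0 in WT saline set at a floor of 3 reads per library. *Lcn2*, an iron-sequestering acute-phase protein, went from 0.849 and 1.01 to 258 and 259 scaled RPKM, and *Saa3*, a serum amyloid A gene, went from 1.60 and 4.69 to 56.6 and 66.4. *Ptx3*, a pentraxin, and the neutrophil chemokines *Cxcl5* and *Cxcl2* were listed at 0 in both WT saline libraries. Against the floor, *Ptx3* was at least 79.0-fold higher, *Cxcl5* at least 61.3-fold higher, and *Cxcl2* at least 27.4-fold higher in WT FAEE-SAP. These folds take both WT FAEE-SAP libraries together, and "at least" refers to the saline floor only. In WT FAEE-SAP replicates 1 and 2, *Ptx3* was at 4.97 and 3.04 scaled RPKM, *Cxcl5* at 6.76 and 2.19, and *Cxcl2* at 1.21 and 2.396. The lower library alone would thus give a smaller fold for each gene. Without WT FAEE-SAP replicate 1 or 2, 19 of the 40 were tested, and the median was 0.75 or 0.60.

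In cKO, 0 of 21 target genes tested passed with FAEE-SAP in limma, where 0.0531% of all genes tested passed, and 3 did at an unadjusted p of 0.05, against 9.42%. With saline, 0 of 18 passed between the genotypes, where 0% of all genes tested passed, and 0 did at an unadjusted p of 0.05, against 2.15%. With voom, 0 passed in both comparisons, where 4 of all 9183 genes tested passed in cKO and 0 of all 8492 with saline. With FAEE-SAP, 6 of 32 were lower in cKO than in WT and 0 higher, where 0.409% of all genes tested were lower, and the median change was -1.27 on the log2 scale. Here too, genes such as *Cxcl1*, *Cxcl2*, and *Il1rn* reached the minimum only through WT FAEE-SAP, and the count is a description and not support. *Saa3* was at 0.943 and 1.63 scaled RPKM in cKO FAEE-SAP (log2 fold change -5.56, SE 0.299, adjusted p = 0.0110 in limma). *Ptx3* (-3.38), *Cxcl1* (-3.32), *Cxcl2* (-3.30), and *Il1rn* (-2.69), the last of which encodes the IL-1 receptor antagonist, were lower too. Without WT FAEE-SAP replicate 1 or 2, 24 were tested and their median was -0.50 or -0.71. Without cKO FAEE-SAP replicate 1 or 2, 32 were tested and their median was -1.49 or -0.95. *Saa3* was the 1 target gene that passed for the interaction (-6.17, SE 0.672, adjusted p = 0.0413 in limma). No test over a list was made, and the *Rela* level and the target levels come from the same libraries.

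The 10 genes differed among themselves in how their levels ran over the 8 libraries. Likeness was taken as the root mean square distance between log2 profiles that were centered on their own mean, as a description without a test. *Nfkbiz* and *Birc3* were closest to each other (0.191), followed by *Nfkb2* and *Tnfaip3* (0.226). *Relb* was nearest to *Nfkb2* (0.303) and *Nfkbia* to *Nfkbiz* (0.2998). *Rela* and *Bcl3* stood apart from the other 8, since the nearest gene was 0.598 away for *Rela* (*Tnfaip3*) and 0.657 away for *Bcl3* (*Nfkb2*). Of 11133 genes at the minimum, those outside the 10 that lay nearest to their mean profile were *Wdr1* (0.0921), *Mark2* (0.0955), *Clec2d* (0.0964), *Ezh2* (0.107), and *Cnot9* (0.108).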

How the data were processed

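RNA-Seq libraries of pancreata from 4 groups, 2 in each, were assigned by their labels. The authors deposited RPKM for 48709 genes per library, from directional paired-end libraries filtered with fastp and mapped to GRCm38.p6 with CLC Genomics Workbench; how RPKM was computed is not given in the sources used here. Strand use in counting is not stated. Library totals (22.9 to 37.7 M reads) were recovered from low values, 84.1% to 85.5% of which gave whole reads within 0.1 of a read; reads per gene are approximate. Coordinates and lengths are from GENCODE vM21 (GRCm38), and 95.1% of genes matched by symbol.

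Each comparison was scaled by the median of ratios. Genes with a deposited RPKM of at least 0.5 in 2 of its libraries were tested on log2(scaled RPKM + 0.1), which understates changes of low genes, with limma 3.58.1 (R 4.3.3, intensity trend). A gene passed at an adjusted p under 0.05 and a 2-fold change. Other scalings, filters, pseudocounts, models, voom on reads, a replicate block, and fits without each library were tried. The script was tested on simulated data. Members and lists were chosen with earlier results of these data known. Named genes are the 10 members, *Pfkfb3*, up to 5 passing genes per list and comparison by size of change, and the 5 nearest profiles.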

Additional observations from a re-analysis of the deposited data

Results flagged for a closer look

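Of the genes named here, 1 passed the test of the difference between the genotypes in their response to FAEE-SAP, as did 8 of all genes tested. *Saa3*, a target gene of NF-kB, had an interaction of genotype and treatment of -6.17 on the log2 scale (SE 0.672, adjusted p = 0.0413 in limma). It was at 1.60 and 4.69 scaled RPKM in WT saline, 56.6 and 66.4 in WT FAEE-SAP, 5.06 and 3.79 in cKO saline, and 0.943 and 1.63 in cKO FAEE-SAP. The sign was negative in all alternatives run, and *Saa3* ranged from -6.83 as deposited to -5.27 with a pseudocount of 1 where all 8 libraries were kept. The adjusted p of *Saa3* in limma was 0.107 with a replicate block and 0.13 without a filter. The adjusted p was 0.0655 with a pseudocount of 0.01 and 0.0695 without an intensity trend, both also in limma. With 1 library left out it passed for *Saa3* only without WT saline replicate 2 (0.0329), and the other 7 fits gave an adjusted p in limma of 0.0772 to 0.197.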

How the results depend on the processing

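2 of the 10 genes passed with FAEE-SAP in WT, against 10 with values as deposited, 0 without a filter, and 1, *Rela*, with a pseudocount of 0.01, without an intensity trend, with a replicate block, and with voom on the recovered reads. With values as deposited 9 passed lower in cKO with FAEE-SAP and 1, *Rela*, for the interaction, against 0 and 0. In cKO against WT with FAEE-SAP, 1 passed with all 8 libraries in 1 model (*Rela*), 2 with a replicate block (*Bcl3*, adjusted p = 0.0377, and *Rela*, 0.0142, in limma), and 3 by unadjusted p, while by unadjusted p 1 passed with saline (*Relb*) and 1 for the interaction (*Rela*). With 1 library left out, 0 to 1 passed in WT and 0 to 0 in each other comparison, where an arm left with 1 library is assumed to vary like the other. The cause of these moves was not tested, beyond the scaling itself shifting the median gene.

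Signs turned only for changes that did not pass, in log2: *Rel* in WT, -0.0025 with quantile normalization. With values as deposited, *Birc3* (0.38) and *Nfkbiz* (0.50) in cKO, *Birc3* (-0.25), *Nfkbiz* (-0.19), and *Rela* (-0.23) between genotypes with saline, and *Rel* (-0.15) for the interaction. With saline also *Birc3* at an RPKM minimum of 2 (-0.019) and *Rela* with quantile normalization (-0.0084). For the interaction, *Relb* at an RPKM minimum of 2 (0.063), a pseudocount of 0.01 (0.0050), and with voom (0.031).

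With 1 library left out, signs also turned within these ranges. In WT, *Birc3* ran from -0.14 to 0.45, *Rel* from -0.36 to 0.43, and *Relb* from -0.012 to 0.97. In cKO, *Birc3* ran from -0.61 to 0.25, *Nfkb2* from -0.081 to 0.82, *Nfkbia* from -0.55 to 0.75, *Nfkbiz* from -0.33 to 0.27, and *Rela* from -0.23 to 0.30. With saline, *Birc3* ran from -0.28 to 0.30, *Nfkb1* from -0.45 to 0.029, *Nfkbia* from -0.73 to 0.57, *Nfkbiz* from -0.044 to 0.16, and *Rela* from -0.23 to 0.30. With FAEE-SAP, *Birc3* ran from -0.83 to 0.16 and *Rel* from -0.52 to 0.22. For the interaction, *Birc3* ran from -0.84 to 0.11, *Nfkb1* from -0.31 to 0.11, *Nfkb2* from -0.73 to 0.16, *Nfkbia* from -1.08 to 0.22, and *Relb* from -0.58 to 0.56.

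Replicate numbers are not said to pair mice. Deviations of same-numbered libraries correlated at -0.175 (WT), 0.3995 (cKO), -0.319 (saline), and 0.304 (FAEE-SAP) over 11133 genes. With the replicate block, 442 genes passed in WT (755 without), 52 in cKO (5), 568 between genotypes with FAEE-SAP (140), and 0 for the interaction (8). A crossed pairing, chosen after seeing the data, gave 822 in WT and 0 with saline. Over all genes, counts in WT ran from 259 without a filter to 7270 as deposited (97 to 491 with 1 library left out), and between genotypes with FAEE-SAP from 0 without a filter to 4427 as deposited. Against 5 in cKO, 0 with saline, and 8 for the interaction, they ran from 0 to 52, 0 to 2, and 0 to 791 by adjusted p. Of the pathway list, 1 to 42 rose in WT and 0 to 29 were lower in cKO with FAEE-SAP, and of the targets 13 to 28 and 0 to 23. *Bcl3* in saline rests on 11 to 39 reads a library, which limits its fold.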
